A study of Homo sapiens with 8 samples.

Results

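Long intergenic noncoding RNAs are transcripts without a recognised protein product that come from the stretches between coding genes, and those with no better name carry a symbol made of LINC and a number. The genes described here are the 73 LINC-number genes that were well measured in an isogenic series of mammary epithelial cell lines. They were selected on their counts, as the LINC-number genes with at least 100 counts in both replicates of at least 1 line, out of 2050 such genes in the table of 56632 genes. Of those 2050 genes, 798 had any count in any library. RNA-seq of poly A+ RNA was performed on 4 lines, M1 to M4, in 2 replicates each. M1 is MCF10A, a spontaneously immortalized, non-tumorigenic mammary epithelial line, and M2 is MCF10AT1k.cl2, which was made by transfecting MCF10A with activated T24-HRAS and selecting in a xenograft. The lines MCF10Ca1h (M3) and MCF10CA1a.cl1 (M4) were both grown out of carcinomas that M2 cells formed as xenografts, so that M3 and M4 also carry the HRAS transgene and its passage in mice. Each line is 1 derivative of MCF10A, not a sample of tumours. All were grown in Matrigel for 8 days with 2% horse serum, with 10 ng/ml EGF, a growth factor of epithelial cells, for M1 and M2 and with EGF omitted for M3 and M4, so line and EGF cannot be told apart in the comparisons of M3 or M4 with M1. A table of the study assigns M1 replicate 2 and M2 replicate 1 to each other's line. The labels are followed here, and under them the M2 libraries are closer to each other than the replicates of any other line. The exchange would put 1 library of that pair into M1. The numbers called under the exchanged assignment are given beside the main ones.

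Noncoding transcripts of this kind are capped, spliced and polyadenylated like messenger RNAs, but they are usually less abundant and more restricted to particular cell types. A few act on the gene next door, some bind proteins or microRNAs, some hold a short reading frame that is translated, and for most no role is known. Several members below have been studied in carcinomas, LINC00460, LINC00511, LINC00941, LINC00707 and LINC01133 among them, where their levels often differ from those of normal epithelium.

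The members were spread over 20 chromosomes, with 8 genes on chromosome 2 as the largest number on any. The annotation called 67 of the 73 a lncRNA and the other 6 a transcribed pseudogene. No coding gene overlapped 65 of them, 4 lay over a coding gene on the opposite strand and 4 over one on the same strand. Their merged exons covered a median of 3961 bp. An earlier open reading frame name, from before they were called noncoding, was listed for 16 members, for example C14orf64 for LINC01550 and C6orf223 for LINC03040.

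The stretch just before the transcription start was read for every member from the genome (GRCh37), from 250 bases before to 50 bases after the start of the main transcript. Both strands were searched for 6 motifs, none of which contains another. The letters searched for AP-1 were TGANTCA and those for CRE were TGACGTCA. For TATA, the letters TATAAA were used. For TEAD they were GGAATG, for SP1 the search used GGGCGG, and for the E-box it used CACGTG. AP-1, the motif of the FOS and JUN family, was in the window of 13 of 73 members (17.8%), against 7.96% of 64475 genes and 9.98% of 18702 lncRNA genes in the annotation. Some of these 13 windows are alike in sequence, so they are not independent cases. TATA was in 8 of 73 members, against 17.2% of all genes and 15.8% of lncRNA genes. The other shares in members, in all genes and in lncRNA genes were 2.74%, 1.16% and 0.839% for CRE, 17.8%, 13.9% and 15.9% for TEAD, 34.2%, 29.2% and 22.5% for SP1, and 5.48%, 5.65% and 5.48% for E-box. A window rich in CpG was found for 23 of 73 members (31.5%), against 25.5% of all genes and 17.8% of lncRNA genes. The members were chosen on their counts and the genes of the annotation were not, and no share over expressed genes is given here.

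In 6 members the AP-1 letters began between 70 and 45 bases before the start, a window drawn after these positions had been seen. The same was true of 0.831% of all promoters and 1.19% of lncRNA promoters. Some of these 6 starts are alike in sequence, so they are not independent cases. The stretches of LINC00973, LINC01239 and LINC00460 are shown as examples. Each line below gives 120 bases, from 100 before the start, 5′ to 3′ on the strand of the gene, in lower case with AP-1 letters in capitals.
LINC00973: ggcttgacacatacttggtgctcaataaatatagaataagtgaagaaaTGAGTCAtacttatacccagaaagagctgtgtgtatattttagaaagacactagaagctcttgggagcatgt
LINC01239: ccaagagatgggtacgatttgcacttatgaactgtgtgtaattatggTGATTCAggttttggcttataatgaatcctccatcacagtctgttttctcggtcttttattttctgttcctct
LINC00460: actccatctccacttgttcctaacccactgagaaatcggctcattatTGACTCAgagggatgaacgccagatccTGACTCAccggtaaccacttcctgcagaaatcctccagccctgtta
These stretches are chr3:98699802-98699921 for LINC00973, chr9:22646099-22646218 for LINC01239 and chr13:107028821-107028940 for LINC00460, all on the plus strand. The first motif base was at position −52 for LINC00973 and −53 for LINC01239 and LINC00460, counted back from the start. A match of letters is not evidence that a factor binds there.

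Total counts ran from 69669970 to 107350344 per library, of which the 73 members took 0.0269% to 0.0489%. Levels below are CPM, the counts scaled to a common library size after TMM normalization, with the value of replicate 1 first. Reads without molecular identifiers are not independent molecules, so floors given below cover counting error only, and in RNA of whole cultures fewer cells that use a gene and less RNA per cell cannot be told apart. A fold given below as at least some value divides the mean CPM of the higher line by a floor of 3 counts per library. The fold of 1 replicate alone can thus be smaller. Basal mammary markers were present in all lines (KRT5 at 2838 to 9190 CPM, TP63 at 36.2 to 108.5 CPM) and so was EPCAM, at 49.9 CPM or more. KRT14, another basal keratin, was at 2.30 and 2.74 CPM in M4 and at 8.26 to 99.7 CPM in the other lines. Leukocyte PTPRC was at 0 in 7 of 8 libraries and at 0.0366 CPM in M1 replicate 2, and PECAM1 was not analysed here. Of the fibroblast markers, COL1A2 was at 0 in all 8 libraries, COL1A1 at 6.07 to 25.5 CPM and PDGFRB at 0.0793 to 0.581 CPM. In M4 against M1, KRT5 (−1.26), TP63 (−1.38) and KRT14 (−2.37) were called lower, and KRT8 (1.27), KRT18 (2.00) and EPCAM (1.57) higher on the log2 scale (edgeR adjusted p = 0.00664, 0.00133, 0.00204, 0.00795, 0.000865 and 0.00379). The basal markers did not all move together. ITGA6 was called higher in M4 (1.235, edgeR adjusted p = 0.0162), and KRT17, at 0.957 (adjusted p = 0.0309), stayed under 2-fold. CDH1 differed by 0.094 (edgeR adjusted p = 0.659). In M3, KRT14 was higher by 2.88, KRT17 by 1.805 and ITGA6 by 1.748 (edgeR adjusted p = 0.00159, 0.0047 and 0.00682). EPCAM (1.297) and KRT18 (1.211) were called higher there too. The part of these marker shifts in the results below was not tested. The 2 M2 libraries were much closer to each other than the replicates of any other line. The chi-square of their counts per degree of freedom was 6.99, where 1 is sampling noise, against 260.1 in M1, 327.4 in M3 and 125.1 in M4. The lines were grown as biological duplicates, and what sets the M2 pair apart was not tested. With the pair summed to 1 sample, 0 members were called in M2 against M1, so every M2 call of a member below was lost under that setting.

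The summed level of the members was 262.3 and 296.6 CPM in M1, 292.0 and 295.4 CPM in M2, 363.6 and 356.3 CPM in M3, and 462.7 and 415.1 CPM in M4. Thus it was lowest in M1 and M2, which overlapped, and higher in both tumour-derived lines without overlap. The sums weigh the most abundant members, as LINC00707 alone went from a mean of 0.995 CPM in M1 to 57.55 CPM in M4. The median log2 fold change of the members against M1 was −0.142 in M3, with 32 of 73 above 0. In M4 it was 0.178, with 39 above 0. As the members had to be high in some line, and 13 of them reached 100 counts in M4 alone against 3 in M1 alone, 3 in M2 alone and 5 in M3 alone, the selection bears on the order of these sums. The minimum was reached in all 4 lines by 25 members and in only 1 line by 24. LINC00707 had the highest CPM over the 8 libraries, a mean of 27.1, with LINC01503 next at 22.0, against a median of 1.94 over the members and a lowest mean of 0.421 for LINC01204.

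**Figure D1:**
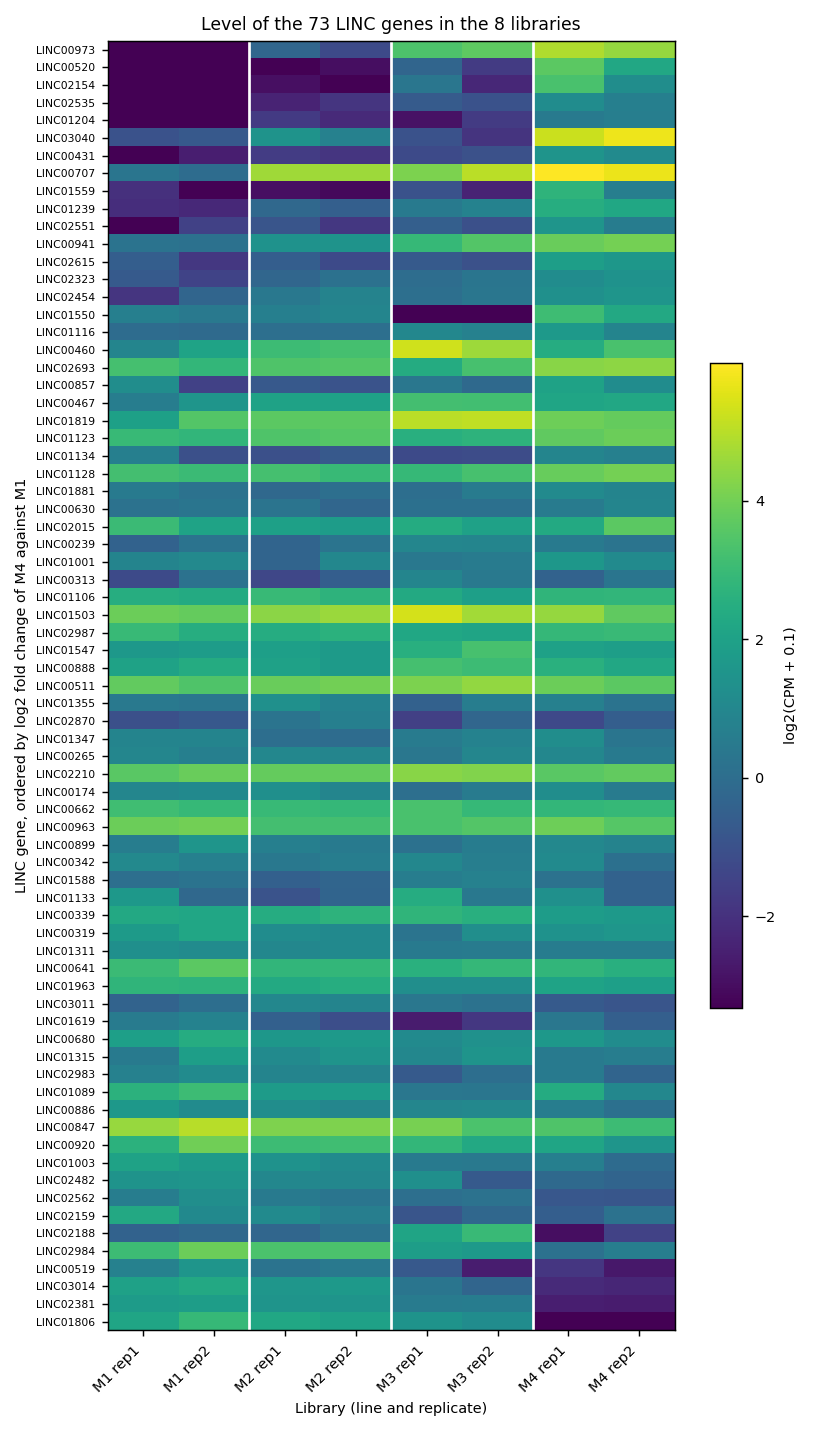
Heat map of log2(CPM + 0.1) for the 73 members (rows, ordered by log2 fold change of M4 against M1) in the 8 libraries (columns, 2 per line), from dark (low) to yellow (high). The top rows, from LINC00973 to LINC01204, are darkest in M1, where both libraries are at 0. LINC03040 below them is darkest in M3. LINC01550 is dark in M3 alone, and LINC01806 at the bottom is dark in M4 alone.

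Per length, the level of the members ranged from 0.0543 to 17.3 CPM per kb of exon, with a median of 0.709. The 6 highest per length over the 8 libraries were LINC00680 (17.3 CPM per kb), LINC00888 (13.2), LINC00973 (9.88), LINC00941 (5.25), LINC01503 (4.71) and LINC00431 (4.68). The order differed by line, as LINC00973 was at 0 in M1 and at 27.1 CPM per kb in M4, above the 14.5 of LINC00680, and LINC00431 was at 0.230 in M1 and 15.0 in M4. Of these, LINC00680, LINC00888 and LINC00431 are pseudogene models of 181, 421 and 159 bp in the annotation used for length, so their levels per length rest on short models and could differ on the models used for counting. LINC00973 and LINC00941 are spliced lncRNAs with 962 and 1355 bp of exon.

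A gene is called higher or lower below at an adjusted p under 0.05 with more than a 2-fold change in edgeR's quasi-likelihood test over all 18432 genes tested, all 73 members included. In M2 against M1, 6 of 73 members were called higher and 0 lower, where 2.26% of all genes tested were higher and 1.11% lower and 4.35% of the 13390 genes that meet the same count rule were called in either direction. In M3 against M1, 14 were higher and 12 lower, beside 8.02% and 5.51% of all genes tested and 15.5% of the genes under the same rule. In M4 against M1, 19 were higher and 10 lower, beside 9.48% and 11.3% of all genes and 22.9% under the same rule. For M4 against M3, the values were 13 higher and 6 lower, beside 3.99%, 6.3% and 11.6%. A member that is high in only 1 line had to differ, so these counts are given as a description and support nothing.

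Among the 25 members that reached the minimum in all 4 lines, 11 were called in at least 1 comparison, and among the 24 that reached it in 1 line, 14 were. The share of all genes called in at least 1 comparison is not given here, so these counts are a description only. The median size of the log2 fold change, regardless of sign, was 0.60, 1.00, 0.94 and 0.91 over the members in the 4 comparisons in this order, against 0.39, 0.54, 0.62 and 0.50 over all genes tested. Over the tested genes that meet the same count rule it was 0.31, 0.45, 0.53 and 0.42. A member high in only 1 line had to differ, so these medians are a description too. The rule was also replaced by a mean of at least 100 counts over the 8 libraries, which left 62 LINC-number genes. Against M1, 5 of them were higher and 0 lower in M2, 11 higher and 10 lower in M3, and 15 higher and 8 lower in M4. In M4 against M3, 8 were higher and 6 lower. A gene high in 1 line can pass this mean too, as LINC02154 did with 1111 and 177 counts in M4. These counts are thus a description as well. The M2 count was the least settled: with the M2 pair as 1 sample it was 0, without M1 replicate 1 it was 3, without M2 replicate 1 it was 1 and without M2 replicate 2 it was 0. With M1 replicate 2 and M2 replicate 1 exchanged, the numbers called were 0, 1, 11 and 7 in the 4 comparisons. Of the 51 calls of members named by rule, 18 were kept under this exchange. These were the M4 calls against M1 of LINC00520, LINC02154, LINC02984, LINC00941, LINC03040, LINC01550, LINC03014, LINC01806, LINC02381 and LINC02615, those of M4 against M3 of the last 6 and LINC02188, and the M3 call of LINC01550. With the M2 pair as 1 sample or without M3 replicate 2 the M3 count fell from 26 to 17, and the 19 calls of M4 against M3 became 10 without M3 replicate 1, 7 without M4 replicate 1 and 12 without M4 replicate 2.

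**Figure D2:**
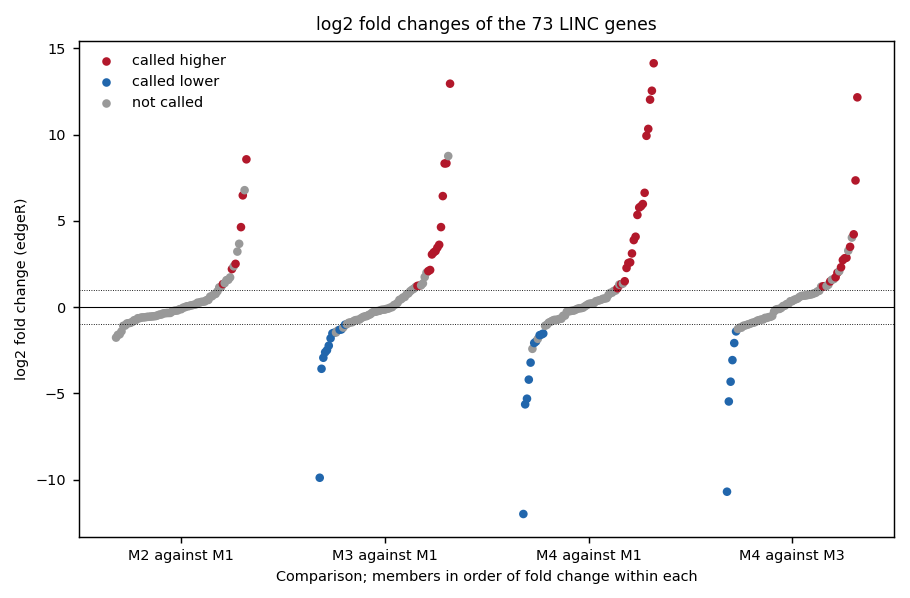
log2 fold changes of the 73 members in the 4 comparisons, in order of size within each, with members called higher in red, lower in blue and the others in grey, and dotted lines at a 2-fold change. The 6 red points of M2 against M1 stand beside 0 blue ones. Points beyond 6 in size belong to LINC03040 (6.63 and 7.35) or to members with 0 counts in both libraries of 1 of the lines compared, whose fitted values are no measure of size.

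The first set of members was low or at 0 in M1 and highest in M4. LINC00707, an intergenic gene on chromosome 10 (6821511-6884868) that has been studied as a growth-promoting RNA in several carcinomas, was at 1.12 and 0.866 CPM in M1, 25.1 and 24.5 CPM in M2, 17.6 and 32.02 CPM in M3, and 63.2 and 51.9 CPM in M4. The M1 libraries lay below all others, M2 and M3 overlapped, and M4 lay above all. Its log2 fold changes against M1 were 4.64 ± 0.33 (SE) in M2, 4.64 ± 0.33 in M3 and 5.85 ± 0.34 in M4, with edgeR adjusted p of 0.00604, 0.000363 and 0.000114. M4 exceeded M3 by 1.21 ± 0.28 (adjusted p = 0.025), a call that was lost without M3 replicate 1, M4 replicate 1 or M4 replicate 2 (adjusted p up to 0.131). Its M2 call was lost without M2 replicate 2 (adjusted p = 0.0605) and with the M2 pair as 1 sample (adjusted p = 0.0596), with the log2 fold change at 4.66 in the latter. With M1 replicate 2 and M2 replicate 1 exchanged, the log2 differences of LINC00707 were −0.049 in M2, 0.92 in M3 (adjusted p = 0.786) and 2.13 in M4 (adjusted p = 0.408), and none of its calls was kept.

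LINC00973 (chromosome 3, 98699902-98701940), a short gene of 2 exons, had 0 counts in both M1 libraries. It had 76 and 23 counts in M2, 813 and 1102 counts in M3, and 3327 and 1776 counts in M4, or 0.746 and 0.327 CPM, 10.3 and 12.7 CPM, and 29.3 and 22.8 CPM. The 4 lines did not overlap. Against a floor of 3 counts per M1 library, 0.0364 CPM, its mean was at least 14.7-fold higher in M2, at least 314.6-fold higher in M3 and at least 714.7-fold higher in M4 (edgeR adjusted p = 0.00849, 0.00047 and 0.000173). M4 and M3 differed by 1.18 ± 0.36 on the log2 scale (adjusted p = 0.0675). The M2 call was lost without either M2 library (adjusted p up to 0.0749) and with the M2 pair as 1 sample (adjusted p = 0.0685). Under the exchange, M1 would hold the library with 76 counts in place of one at 0, the bounds would not apply, and the fitted log2 differences of LINC00973 were −1.26 in M2, 4.91 in M3 (adjusted p = 0.163) and 6.09 in M4 (adjusted p = 0.0555), with all calls lost.

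LINC00941 starts head to head with the coding gene CAPRIN2 and has been linked to TGF-beta signalling in colorectal cancer. It was at 1.06 and 1.01 CPM in M1, 2.60 and 2.64 CPM in M2, 7.50 and 11.3 CPM in M3, and 14.5 and 16.2 CPM in M4. No 2 lines overlapped. The log2 fold changes against M1 were 1.34 ± 0.27 in M2, 3.18 ± 0.28 in M3 and 3.89 ± 0.29 in M4 (edgeR adjusted p = 0.0325, 0.000646 and 0.000219), of which that of M2 was lost on leaving out any 1 library of M1 or M2 (adjusted p up to 0.235) and with the M2 pair as 1 sample (adjusted p = 0.22). Under the exchange only its M4 call was kept, at 3.07 (adjusted p = 0.0229). LINC01239, a neighbour of DMRTA1 on chromosome 9 (22646199-22824212), behaved alike at a lower level, with 0.133 and 0.110 CPM in M1, 0.795 and 0.597 CPM in M2, 1.34 and 1.67 CPM in M3, and 5.45 and 4.54 CPM in M4. Again no 2 lines overlapped. Its differences from M1 were 2.51 ± 0.39, 3.61 ± 0.39 and 5.35 ± 0.41 (edgeR adjusted p = 0.0143, 0.0014 and 0.000244), and M4 exceeded M3 by 1.73 ± 0.34 (adjusted p = 0.0156). Leaving out either M2 library lost its M2 call (adjusted p up to 0.139), as did counting the M2 pair as 1 sample (adjusted p = 0.0962), and leaving out M3 replicate 1 or M4 replicate 1 lost that of M4 against M3 (adjusted p up to 0.0877). Under the exchange all calls of LINC01239 were lost, with 3.41 in M4 (adjusted p = 0.0673).

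LINC02535, on chromosome 6 and named after its values were seen, had 0 counts in both M1 libraries, 9 and 12 counts in M2, 42 and 35 counts in M3, and 247 and 120 counts in M4. It was at least 51.0-fold higher in M4 than the M1 floor (edgeR adjusted p = 0.000717). LINC01204, on the X chromosome and also named after its values were seen, had 0 counts in both M1 libraries, 20 and 8 in M2 (edgeR adjusted p = 0.0567), 3 and 18 in M3, and 151 and 116 in M4, at least 38.7-fold higher (edgeR adjusted p = 0.00294). Both reached 100 counts in M4 alone.

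A second set was close to silent until M4. LINC00520, known as LEENE in endothelial cells where it helps transcription of the nitric oxide synthase gene, had 0 counts in both M1 libraries, 0 and 2 counts in M2, 57 and 18 counts in M3, and 1420 and 370 counts in M4. M4 stood above every other library, yet its replicates differed, at 12.5 and 4.74 CPM. The mean level was at least 12.7-fold above the M1 floor in M3 and at least 236.8-fold above it in M4 (edgeR adjusted p = 0.0188 and 0.00217). The M3 replicates were at 0.720 and 0.207 CPM, against that floor of 0.0364 CPM. M4 exceeded M3 by 4.22 ± 0.87 on the log2 scale (adjusted p = 0.0226). Without either M1 library or without M3 replicate 1 the M3 call was lost (adjusted p up to 0.0608), and without M3 replicate 2 or M4 replicate 1 that of M4 against M3 was (adjusted p up to 0.118).

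LINC02154, an X-linked gene, had 0 counts in M1, 3 and 0 counts in M2, 91 and 9 counts in M3, and 1111 and 177 counts in M4. As with LINC00520, replicate 1 was the higher in both M3 and M4. Its mean was at least 165.5-fold higher in M4 than the M1 floor (edgeR adjusted p = 0.0111), and in M3 at least 17.2-fold with an adjusted p of 0.0506. The replicates were at 9.79 and 2.27 CPM in M4 and 1.15 and 0.103 CPM in M3, against a floor of 0.0364 CPM. LINC00431, a pseudogene model, had 0 and 6 counts in M1, 22 and 12 counts in M2, 26 and 34 counts in M3, and 305 and 163 counts in M4, a log2 fold change of 5.98 ± 0.93 in M4 (edgeR adjusted p = 0.00312). The size rests on the 6 counts of M1 replicate 2, without which the fitted value was 10.7, and it was 5.02 without M1 replicate 1. A transcript of TUBGCP3 matches it at 99.4% identity over its whole length, so reads could have been split between the 2 genes.

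LINC03040, the former C6orf223 on chromosome 6 (43968317-43975349), was at 0.411 and 0.512 CPM in M1, 2.64 and 1.61 CPM in M2, 0.404 and 0.161 CPM in M3, and 37.6 and 54.1 CPM in M4. Its mean CPM in M4 was second to that of LINC00707 among the members, while M3 and M1 did not differ by the test (edgeR adjusted p = 0.305). It rose by 6.63 ± 0.49 on the log2 scale in M4 against M1 and by 7.35 ± 0.51 in M4 against M3 (edgeR adjusted p = 0.000219 and 0.000935). A difference of 2.20 ± 0.43 in M2 (adjusted p = 0.0303) was lost on leaving out any 1 library of M1 or M2 (adjusted p up to 0.215) and with the M2 pair as 1 sample (adjusted p = 0.117).

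LINC02615 was at 0.183 to 0.580 CPM in the 6 libraries of M1, M2 and M3 and at 3.66 and 2.96 CPM in M4. M4 was higher than M1 by 3.11 ± 0.60 (edgeR adjusted p = 0.00746, 4.18 with M1 replicate 1 left out and 2.51 with M1 replicate 2 left out) and than M3 by 2.86 ± 0.60 (adjusted p = 0.0188), the latter lost on leaving out any 1 library of M3 or M4 (adjusted p up to 0.0912). LINC01550 differed in pattern, with 124 and 102 counts in M1, 155 and 124 counts in M2, 0 and 0 counts in M3, and 955 and 376 counts in M4. The 3D cultures of M3 thus gave 0 counts for a gene counted in all libraries of the other 3 lines. M3 was at least 37.9-fold lower than M1 and M4 at least 182.9-fold higher than the M3 floor (edgeR adjusted p = 0.000915 and 0.00112), and M4 exceeded M1 by 2.27 ± 0.40 (adjusted p = 0.00671).

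**Figure D3:**
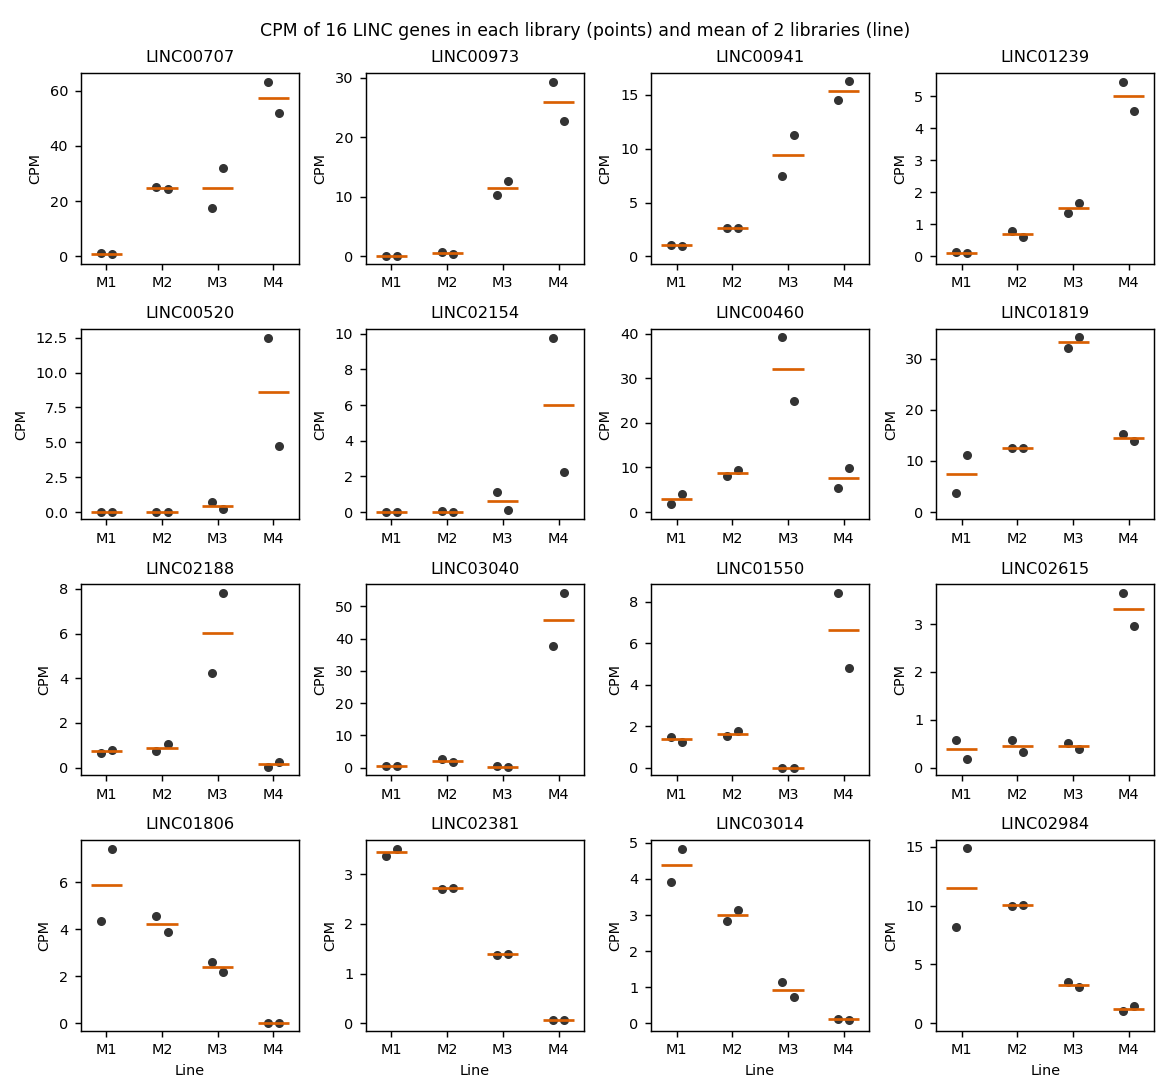
CPM of 16 members in each library (points, replicate 1 on the left) with the mean of the 2 libraries (orange line), each panel on its own linear scale. The first 6 panels are highest in M4, LINC00460, LINC01819 and LINC02188 in M3, LINC03040, LINC01550 and LINC02615 in M4, and the bottom 4 fall from M1 to M4.

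Another set was highest in M3. LINC00460, an RNA studied in head and neck and other squamous carcinomas, was at 1.78 and 4.09 CPM in M1, 8.16 and 9.41 CPM in M2, 39.2 and 24.8 CPM in M3, and 5.30 and 9.79 CPM in M4. M3 lay above all other libraries, and M2 and M4 overlapped. M3 exceeded M1 by 3.45 ± 0.48 (edgeR adjusted p = 0.00342), M4 exceeded M1 by 1.36 ± 0.45 without passing the test (adjusted p = 0.0528), and M4 was lower than M3, at −2.09 ± 0.45 (adjusted p = 0.0219), a call lost without M3 replicate 1 or M4 replicate 1 (adjusted p up to 0.125). LINC00467, which holds a short reading frame translated into a mitochondrial peptide (ASAP), was at 1.43 and 2.82 CPM in M1, 4.05 and 3.95 CPM in M2, 9.08 and 8.99 CPM in M3, and 4.36 and 4.71 CPM in M4. M3 exceeded M1 by 2.09 ± 0.35 (edgeR adjusted p = 0.00624), and M4 by 1.10 ± 0.34 (adjusted p = 0.0414), the latter lost without M1 replicate 1 or either M4 library (adjusted p up to 0.137).

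LINC02188, which reached 100 counts in M3 alone, was at 0.653 and 0.793 CPM in M1, 0.746 and 1.04 CPM in M2, 4.22 and 7.81 CPM in M3, and 0.0264 and 0.256 CPM in M4. It was high in M3 and nearly absent from M4. The differences were 3.05 ± 0.76 for M3 against M1 (edgeR adjusted p = 0.0277, lost without either M1 library or M3 replicate 2 at up to 0.118) and −5.47 ± 0.88 for M4 against M3 (adjusted p = 0.00859). The latter was −4.54 without M4 replicate 1 and −7.74 without M4 replicate 2, where 3 counts were left. LINC01503, a gene that the basal factor TP63 drives in squamous carcinomas, was at 14.8 and 13.7 CPM in M1, 20.5 and 23.7 CPM in M2, 41.4 and 25.6 CPM in M3, and 23.0 and 13.1 CPM in M4, and M3 exceeded M1 by 1.23 ± 0.31 (edgeR adjusted p = 0.0283, lost without either M1 library or M3 replicate 1 at up to 0.119). LINC01819, named after its values were seen, reached 32.1 and 34.3 CPM in M3, against 3.79 and 11.2 CPM in M1, a difference of 2.15 ± 0.43 (edgeR adjusted p = 0.0127).

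The last set was called lower than M1 in M3, in M4 or in both. LINC01806, beside TANK on chromosome 2 (162101231-162105606), had 361 and 609 counts in M1, 466 and 273 counts in M2, 208 and 190 counts in M3, and 0 in both M4 libraries. It was at least 181.8-fold lower in M4 than in M1 and at least 74.1-fold lower than in M3 (edgeR adjusted p = 0.000223 and 0.00124). The M3 value of −1.29 ± 0.36 against M1 (adjusted p = 0.0474) was lost without M1 replicate 2 or either M3 library (adjusted p up to 0.168) and with the M2 pair as 1 sample (adjusted p = 0.107).

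LINC02381, which overlaps SMUG1 on the opposite strand beside the HOXC cluster, was at 3.37 and 3.51 CPM in M1, 2.70 and 2.73 CPM in M2, 1.38 and 1.39 CPM in M3, and 0.0705 and 0.0641 CPM in M4. No 2 lines overlapped. It fell by 5.64 ± 0.38 in M4 against M1 and by 4.33 ± 0.37 in M4 against M3 on the log2 scale (edgeR adjusted p = 0.000165 and 0.00128), and by 1.31 ± 0.30 in M3 (adjusted p = 0.0196, lost without M1 replicate 2 or either M3 library at up to 0.0603). LINC03014, near the end of chromosome 7 (149549-155465), was at 3.93 and 4.84 CPM in M1, 2.85 and 3.14 CPM in M2, 1.14 and 0.723 CPM in M3, and 0.115 and 0.102 CPM in M4. Here too no 2 lines overlapped, with decreases of 2.24 ± 0.36 in M3 and 5.31 ± 0.42 in M4 against M1 and of 3.08 ± 0.40 in M4 against M3 (edgeR adjusted p = 0.00537, 0.000263 and 0.00447). LINC02984 had 8.18 and 14.9 CPM in M1, 9.98 and 10.1 CPM in M2, 3.49 and 3.09 CPM in M3, and 0.996 and 1.49 CPM in M4, and dropped by 1.81 ± 0.34 in M3 and 3.22 ± 0.37 in M4 (edgeR adjusted p = 0.0104 and 0.000888), the former lost without M3 replicate 2 (adjusted p = 0.0565). Its value of −1.41 ± 0.35 in M4 against M3 (adjusted p = 0.0314) was lost on leaving out any 1 library of those lines (adjusted p up to 0.165).

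LINC01089, named LIMT as a lncRNA that inhibits metastasis and that EGF represses in mammary cells, was at 6.14 and 8.23 CPM in M1, 3.37 and 3.41 CPM in M2, 1.19 and 1.15 CPM in M3, and 5.13 and 1.90 CPM in M4. The M3 level was the lowest and the M4 replicates straddled M2. M3 was lower than M1 by −2.62 ± 0.47 (edgeR adjusted p = 0.00862), while M4 differed from M1 by −1.03 ± 0.45 (adjusted p = 0.117). RHOF lies on the same strand and shares 70.2% of a LINC01089 transcript, and it was at 174.0 and 179.9 CPM in M4 against 20.9 to 34.5 CPM in the other lines, so the LINC01089 counts are uncertain. LINC02159 was at 4.85 and 2.02 CPM in M1, 2.10 and 1.49 CPM in M2, 0.455 and 0.758 CPM in M3, and 0.590 and 1.04 CPM in M4. The 2 M1 libraries differed by more than 2-fold, and the values of −2.50 ± 0.56 in M3 and −2.08 ± 0.55 in M4 (edgeR adjusted p = 0.0188 and 0.0241) were lost without M1 replicate 1 and without either library of the other line compared (adjusted p up to 0.0908 in M3 and 0.13 in M4). The other members called lower, named after their values were seen, were LINC00519, LINC00847 and LINC01003 in both M3 and M4, LINC01619 and LINC01963 in M3, and LINC00920 and LINC02562 in M4. The means of LINC01619 and LINC01963 were lowest in M3. LINC01619 was called higher in M4 than in M3, by 2.83 ± 0.64 (edgeR adjusted p = 0.0245).

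In none of the 4 comparisons were 34 members called. Their mean levels over the 8 libraries ran from 0.669 to 15.2 CPM, and their log2 fold changes from −1.84 to 1.62. The share of all genes called in none is not given here, so the number 34 is a description only. The line means of LINC00662 were the closest together, with 8.67 and 7.38 CPM in M1, 7.59 and 7.17 CPM in M2, 9.88 and 7.50 CPM in M3, and 7.12 and 7.41 CPM in M4, a ratio of 1.20 between the highest and lowest line. LINC00265 (ratio 1.22) and LINC00342 (ratio 1.35) followed, and both have near-identical transcripts elsewhere. LINC00511, a breast cancer lncRNA reported to bind EZH2, was at 10.8 to 22.4 CPM in all libraries. Its M3 difference of 0.74 ± 0.20 passed the p threshold (edgeR adjusted p = 0.0387) but not the 2-fold one. LINC00339, near CDC42, was at 3.17 to 6.69 CPM, with M4 below M3 by −0.91 ± 0.25 (edgeR adjusted p = 0.0428), also under 2-fold. LINC00888, whose nearest coding gene is MCF2L2, was at 9.36 and 8.14 CPM in M3 against 4.03 and 5.21 CPM in M1 (0.92 ± 0.26, edgeR adjusted p = 0.0436, under 2-fold), and LINC00680 was at 2.08 to 5.36 CPM.

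LINC01133, an RNA that binds the splicing factor SRSF6 and has been linked to epithelial state, varied widely between replicates in M1, M3 and M4. Replicate 1 held 249, 427 and 281 counts in M1, M3 and M4 and replicate 2 held 65, 106 and 52, while M2 had 43 and 49. No comparison of it passed the test (edgeR adjusted p = 0.31 to 0.848). More than a 2-fold gap between replicates was seen for 14 of 73 members in M1, 5 members in M2, 12 members in M3 and 10 members in M4, against 9.4%, 1.19%, 7.12% and 5.53% of all genes under the same count rule, and the median gap of members was 0.35, 0.24, 0.39 and 0.36 on the log2 scale.

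**Figure D4:**
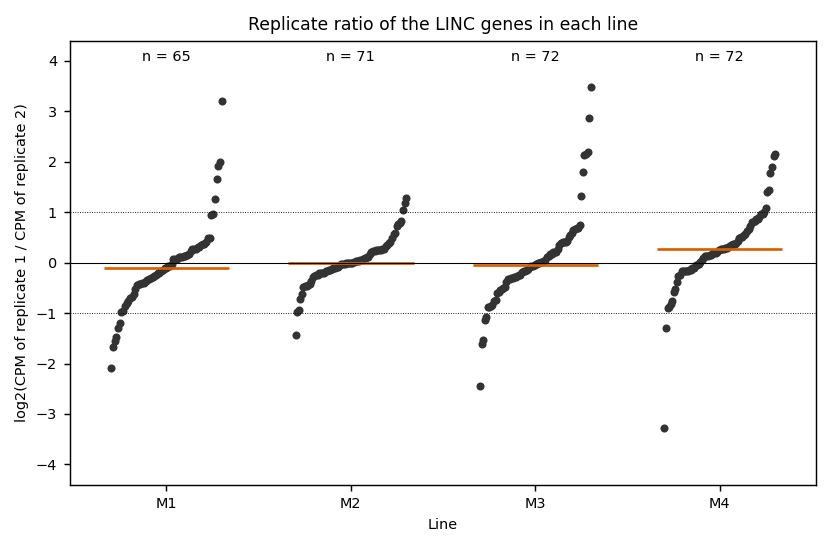
log2 ratio of replicate 1 to replicate 2 for each member with a count in both libraries of a line (points in order, with the median in orange and the number of members above). Most points lie between the dotted lines at a 2-fold ratio, M2 has the narrowest spread, and the median is shifted towards replicate 1 in M4, at 0.26 over all 73 members.

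Just inside the minimum of 100 counts were LINC02870, with 111 and 106 counts in M2 and 19 to 64 elsewhere, LINC01133, through its 427 and 106 counts in M3, and LINC00313, with 143 and 110 counts in M3. Just outside were LINC02762, with 194 and 98 counts in M4, LINC00205, with 96 and 104 counts in M1, and LINC00885, with 118 and 92 counts in M1.

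At their loci, the members without overlap lay a median of 29180 bp from the nearest coding gene. Among all 73, 5 started head to head with the nearest coding gene within 5000 bp: LINC00857 and ANXA11, LINC00941 and CAPRIN2, LINC01134 and C1orf174, LINC01547 and SLX9, and LINC02482 and an unnamed gene. The coding neighbour was tested for 61 members. Of the 23 of these members called in M3 against M1, 4 had a neighbour that was also called, all 4 in the same direction, and of the 24 called in M4, 5 had one, 3 in the same direction and 2 in the opposite. Over all 61 members, called or not, the neighbour was called for 12 in M3 and 17 in M4. Of all genes tested, 13.5% and 20.7% were called, and of those under the count rule 15.5% and 22.9%. The neighbours had to be tested but not to meet the count rule. A coding gene nearest to more than 1 member was counted for each, such as TPST1 (LINC00174 and LINC03011) and SIK1 (LINC00313 and LINC00319). The 4 of 23 called members in M3 and the 5 of 24 in M4 are thus near the shares of all genes tested. The numbers were 1 of 6 in M2 against M1 and 1 of 16 in M4 against M3.

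LINC02535, called higher in M2, M3 and M4, lies 59398 bp from NT5E, the gene of the ecto-nucleotidase CD73. NT5E was at 6.36 and 4.53 CPM in M1, 42.5 and 39.1 CPM in M2, 318.2 and 212.4 CPM in M3, and 272.2 and 199.4 CPM in M4, with log2 differences from M1 of 2.91 ± 0.27, 5.61 ± 0.31 and 5.44 ± 0.31 (edgeR adjusted p = 0.00604, 0.000244 and 9.55e-05). Both genes were thus called higher in all 3 lines than in M1, but the M2 call of LINC02535 (adjusted p = 0.0273) rests on 9 and 12 counts and was lost with the M2 pair as 1 sample, without M2 replicate 2 and under the exchange. The neighbours' values follow the labels and were not recomputed under the exchange. DCBLD2, a membrane receptor gene 79363 bp from LINC00973, was at 52.1 and 54.9 CPM in M1, 100.4 and 101.7 CPM in M2, 428.0 and 572.8 CPM in M3, and 715.2 and 659.9 CPM in M4. It exceeded M1 by 3.23 ± 0.18 in M3 and 3.68 ± 0.19 in M4 (edgeR adjusted p = 0.000254 and 9.55e-05), so member and neighbour ran in the same order of lines.

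FOXL1, a forkhead factor 126644 bp from LINC02188, was higher in M3 than in M1 by 3.03 ± 0.62 (edgeR adjusted p = 0.014), with 4.61 and 2.62 CPM in M3. DMRTA1, 190460 bp from LINC01239, differed by 1.33 ± 0.42 in M4 (edgeR adjusted p = 0.0472). BTG1, an antiproliferative gene that overlaps LINC01619 on the same strand and shares its sequence, fell by 1.07 ± 0.24 in M3 (edgeR adjusted p = 0.0178), and the 2 genes' reads could have been exchanged. Opposite directions were seen at 2 loci. PRKCQ, the gene of protein kinase C theta 199248 bp from LINC00707, was at 4.25 and 3.84 CPM in M1, 6.43 and 6.60 CPM in M2, 2.49 and 3.18 CPM in M3, and 0.449 and 0.0641 CPM in M4, lower in M4 by −3.92 ± 0.69 (edgeR adjusted p = 0.00527) where LINC00707 was highest. ATP10B, 79564 bp from LINC02159, was higher in M4 than in M1 by 2.29 ± 0.50 (edgeR adjusted p = 0.0118) where LINC02159 was lower.

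**Figure D5:**
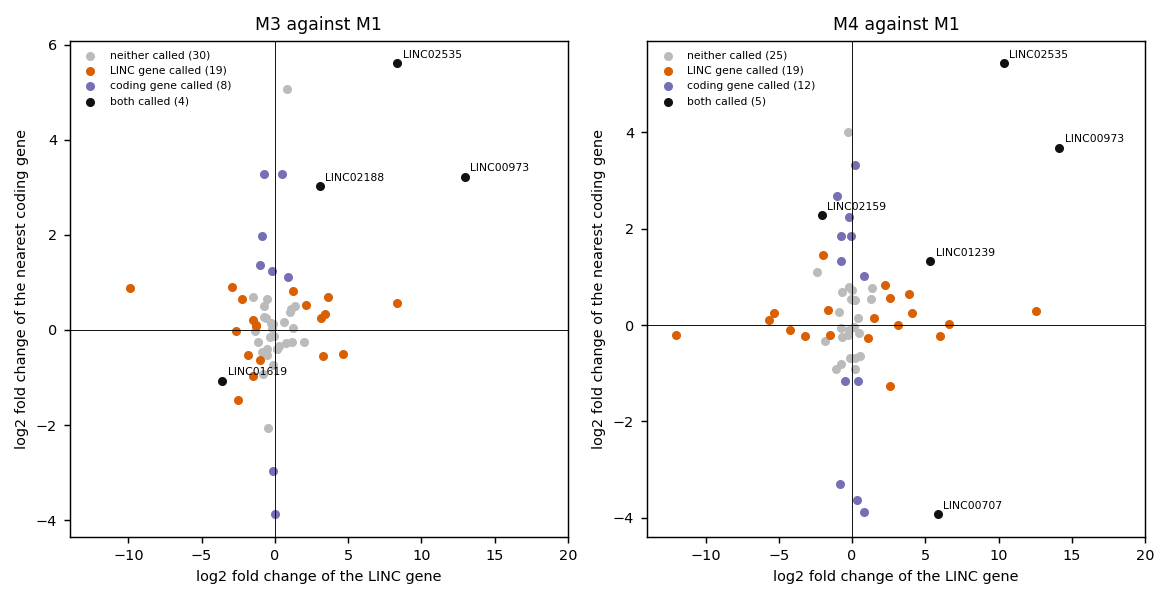
log2 fold change of each member (x axis) and of its nearest coding gene (y axis) in M3 and in M4 against M1, for the 61 members whose neighbour was tested, coloured by which of them was called. Of the points where both were called, named in the panels, all 4 in M3 lie in quadrants of equal sign, and in M4 LINC00707 and LINC02159 lie in quadrants of opposite sign.

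Some members are neighbours or copies of each other, and those not yet named are given for their position. LINC00662 and LINC02987 overlap at their starts on opposite strands of chromosome 19, and LINC02987 was at 4.19 to 7.89 CPM, with no call for either. LINC00174 and LINC03011, 41 bp apart on chromosome 7, and LINC00313 and LINC00319, 8058 bp apart on chromosome 21, had no call either. LINC01106 and LINC01123 are near copies, 99.5% identical over 92.3% of a LINC01106 transcript, and LINC01123 was higher in M4 than in M3 by 1.21 ± 0.19 (edgeR adjusted p = 0.00861) while LINC01106 differed by 0.64 (adjusted p = 0.116). How reads were shared between them cannot be told from the counts. In all, 12 members have a transcript at least 95% identical over at least 50% of its length to one of a gene elsewhere, and their counts are uncertain. Without them, the numbers called were 6, 25, 27 and 16 in the 4 comparisons.

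The promoter motif can be set beside the calls, as a description with no test. Of the 13 members with AP-1 letters in the window, 3 were called higher and 0 lower in M2 against M1, while M3 and M4 each had 6 higher and 2 lower against M1. Of the 60 without, 3 were higher and 0 lower in M2, 8 higher and 10 lower in M3, and 13 higher and 8 lower in M4. In M4 against M3, 3 of the 13 were higher and 3 lower, and 10 of the 60 were higher and 3 lower. The CpG-rich windows of 23 members came with 3 higher and 3 lower in M3 and 4 higher and 2 lower in M4. The 50 members without such a window had 11 higher and 9 lower in M3, and 15 higher and 8 lower in M4. Of all genes tested, 8.02% were higher and 5.51% lower in M3, and 9.48% and 11.3% in M4. When M2 was set against M1, the share called higher was 2.26% and the share called lower 1.11%. For M4 against M3 these shares were 3.99% (higher) and 6.3% (lower). Every M2 call of a member was lost with the M2 pair as 1 sample. Some of the 13 windows are alike in sequence, so their members are not independent cases.

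Well-known lncRNAs with names of their own were listed for comparison. Of these 28, 26 were tested. In M4 against M1, 1 was higher and 11 lower, in M3 against M1 1 and 6, in M2 against M1 0 and 1, and in M4 against M3 1 and 3. Among all genes tested, 9.48% were higher and 11.3% lower in M4, 8.02% and 5.51% in M3, and 2.26% and 1.11% in M2. For M4 against M3 the shares were 3.99% and 6.3%. The list was picked from general knowledge, so its counts are a description only. H19, an imprinted transcript, was at 0.0529 and 0.243 CPM in M4 against 10.3 and 7.32 CPM in M1, a log2 difference of −5.97 (edgeR adjusted p = 0.000726). HOTAIR, from the HOXC cluster beside which LINC02381 lies, differed by −2.10 in M3 and −1.68 in M4 (edgeR adjusted p = 0.00623 and 0.00906). The growth arrest transcript GAS5 and the snoRNA host SNHG5 were lower in M4 by −1.36 and −2.62 (edgeR adjusted p = 0.00533 and 0.000219), and the stress-responsive LUCAT1 was the 1 higher, by 4.03, from 0.0242 and 0.0610 CPM in M1 to 0.414 and 1.03 CPM. MALAT1 and NEAT1, the abundant nuclear lncRNAs, were not called, and their levels in M4 replicate 1, 107.6 and 336.9 CPM, stood far above the 40.2 and 103.1 CPM of replicate 2.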

How the data were processed

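Expected counts of genes in M1 to M4 cells, with biological duplicates, were taken from the deposited table. The authors trimmed reads with Trimmomatic, aligned them with STAR to hg19 and made these estimated counts with RSEM on GENCODE v19; tool versions and the use of strand are not given in the sources used here. Counts were rounded. Symbols, lengths and loci came from GENCODE release 44 on the same build, which named 53454 of 56632 genes. Tests used edgeR 4.0.16 (quasi-likelihood F test, robust, TMM, filterByExpr, 1 coefficient per line over 8 libraries, Benjamini-Hochberg over 18432 genes), and DESeq2 1.42.0 as an alternative; standard errors are those implied by the F statistic. Steps were tested on simulated data. The members and all lists were chosen with earlier results of these data known. Named genes are LINC00707, LINC00973, the 4 largest called changes in each direction of each comparison (libraries not overlapping, mean of at least 100 counts), the 6 highest per length, listed studied genes, the 3 steadiest and those at the minimum, 30 members in all. Others are marked where they are named. Some promoter sequences are not reported here.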

Additional observations from a re-analysis of the deposited data

How the results depend on the processing

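The counts of members called were recomputed under other settings. In M2 against M1 the 6 calls became 11 with DESeq2, 11 with no filter on low counts, 1 in a fit of only the 2 lines compared, 2 at an adjusted p under 0.01, and 0 with the M2 libraries as 1 sample, an alternative added after seeing the data, as was leaving out members with near-identical copies. In M3 against M1 the 26 became 17 in a fit of only the 2 lines, 12 at an adjusted p under 0.01 and 17 with the M2 libraries as 1 sample. The 29 of M4 against M1 became 18 at an adjusted p under 0.01 and 19 among members with 200 counts, and the 19 of M4 against M3 became 7 at an adjusted p under 0.01. A minimum of 200 counts left 41 members of 73. With 1 library left out, the counts ran from 0 to 9 in M2, 17 to 20 in M3, 21 to 29 in M4 and 7 to 16 in M4 against M3. A table of the study assigns M1 replicate 2 and M2 replicate 1 to each other's line. With these exchanged libraries the counts were 0, 1, 11 and 7, and the M2 changes turned to −0.049 for LINC00707, −1.26 for LINC00973, −0.41 for LINC01239, −0.54 for LINC03040 and −0.009 for LINC00941. The labels were kept, under which the M2 pair is the closest of all.

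Same-numbered replicates deviated little together, with a correlation of 0.123 between M3 and M4 and of −0.024 to 0.030 between the other pairs of lines. The main fit has no term for the replicate number. What the M3 and M4 replicates share was not tested. With a replicate block the counts were 6, 25, 30 and 18, and 48 of 51 calls of named members were kept. All 51 were kept with DESeq2, with its type of size factors and with either other filter, 41 in a fit of only the 2 lines, 37 with the M2 libraries as 1 sample, 18 with the exchanged libraries, and 29 in each fit without 1 library, where the lone library of a line is assumed to vary like the others. Members near the minimum of 100 counts rest on few reads, and 2 libraries a line limit the precision of all.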
